A study of Homo sapiens with 6 samples.

Results

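The genes described here encode the proteins that license replication origins, switch on the replicative helicase, and run and protect the fork. They were given as 44 gene symbols, and each symbol was looked up among the array features that the platform annotation pairs with a single gene. Of the 44, 35 had a named feature, out of 14884 genes named on the array. The 9 symbols without one, ORC1 to ORC6, GMNN, CHTF18 and ATAD5, were not analysed here, so the origin recognition complex and the licensing inhibitor geminin are absent from what follows. The 35 measured genes were split by role into 9 of licensing, 13 of helicase activation, and 13 of the fork, its checkpoint and histone supply.

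RNA came from SUM159, an established cell line of triple-negative human breast cancer with mesenchymal features. Decitabine, a nucleoside drug that enters newly made DNA and depletes DNA methyltransferases, was given to 3 samples at 1 µM for 72 h with fresh medium every day, and 3 untreated samples were kept in control medium for 72 h. All 6 samples shared a medium with serum, insulin and hydrocortisone. The control titles also carry the 1 µM dose (not taken here as a treatment), and nothing states whether the control medium held solvent or whether samples of a group came from separate cultures.

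Before a cell can copy its DNA, the origin recognition complex, CDC6 and CDT1 load the MCM2 to MCM7 ring onto DNA in G1 as an inactive helicase. The kinase CDC7 with its partner DBF4, together with cyclin-dependent kinases, then lets TICRR, TOPBP1 and DONSON bring in CDC45 and the GINS tetramer. These join the ring to form the working helicase, and MCM10 acts as the ring starts to unwind DNA. At the fork PCNA clamps the polymerases to DNA, FEN1 and DNA2 trim Okazaki fragments, and CLSPN, TIMELESS and TIPIN couple the helicase to the checkpoint kinase. Many of these genes are classic targets of E2F transcription factors and are transcribed mainly around the entry into S phase.

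Some of the genes also share promoter letters. Because many of the genes are known E2F targets, the shares of E2F-type words below are not independent of their choice. Promoters of 300 bases, from 250 before to 50 after the start of a gene, were taken from RefSeq (GRCh38.p14), and 28 of the 35 genes had at least 1 entry. The E2F-type words TTTCCCGC, TTTCGCGC, TTTGCCGC and TTTGGCGC were searched on both strands. At least 1 word stood in a promoter of 16 of the 28 genes (57.1%), against 578 of 10749 measured genes with an entry (5.38%). All 7 licensing genes with an entry held a word, as did 5 of 10 helicase activation genes and 4 of 11 fork genes. CCAAT, the short word bound by NF-Y, was held by 17 of 28 genes (60.7%) against 41.4% of measured genes. The stretches below show where words lie in some genes that rose after decitabine (MCM2 and TIPIN with the replicate block only, described below) and in MCMBP, which had a small change. Not printed are words of CDC7, TOPBP1 and MCM8 (rose with the block only), of CDT1 and GINS3 (called in neither fit), and further words of MCM3 and MCM7. The stretches run 5′ to 3′ along the gene, and capitals mark the E2F-type words or their reverse complements.
MCM6 (chr2:135876497-135876620, minus strand): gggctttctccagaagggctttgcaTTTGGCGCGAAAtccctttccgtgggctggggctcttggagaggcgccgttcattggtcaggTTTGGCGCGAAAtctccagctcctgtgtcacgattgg
MCM3 (chr6:52284714-52284771, minus strand): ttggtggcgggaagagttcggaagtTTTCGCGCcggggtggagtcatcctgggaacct
MCM7 (chr7:100101374-100101431, minus strand): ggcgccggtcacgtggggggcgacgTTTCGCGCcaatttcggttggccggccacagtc
CDC6 (chr17:40287861-40287918, plus strand): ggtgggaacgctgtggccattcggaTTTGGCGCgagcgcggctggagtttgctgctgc
MCM2 (chr3:127598388-127598449, plus strand): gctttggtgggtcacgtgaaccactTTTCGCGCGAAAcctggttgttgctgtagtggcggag
GINS1 (chr20:25407653-25407710, plus strand): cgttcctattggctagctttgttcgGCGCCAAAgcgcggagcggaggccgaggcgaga
GINS2 (chr16:85688953-85689010, minus strand): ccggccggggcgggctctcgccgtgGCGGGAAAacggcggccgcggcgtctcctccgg
CLSPN (chr1:35769951-35770008, minus strand): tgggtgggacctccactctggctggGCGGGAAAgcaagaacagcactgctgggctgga
PCNA (chr20:5126649-5126706, minus strand): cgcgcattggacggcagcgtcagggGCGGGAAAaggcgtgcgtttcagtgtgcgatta
TIPIN (chr15:66356715-66356776, minus strand): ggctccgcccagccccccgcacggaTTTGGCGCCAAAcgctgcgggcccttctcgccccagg
MCMBP (chr10:119872820-119872877, minus strand): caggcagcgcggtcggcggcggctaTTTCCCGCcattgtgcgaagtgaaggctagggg
In MCM6 the word and a reversed word overlap into a near-palindrome that occurs at 2 places, and in MCM2 and TIPIN overlapping words form a palindrome. The word shown for MCM3 begins at position -4 and that of MCM7 at -9, counted from the gene's start with no position 0.

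Of the 11 genes with an entry that rose without a block, 8 held an E2F-type word (72.7%) and 10 held CCAAT (90.9%). Of the 17 not called, 8 held an E2F-type word (47.1%) and 7 held CCAAT (41.2%), and these differences were not tested. The 16 genes with a word had changes from 0.15 to 2.13 on the log2 scale (median 0.99), and the 12 genes without one had changes from -0.15 to 2.13 (median 0.75). MCMBP held TTTCCCGC at position -9 and had the smallest change among licensing genes, whereas FEN1, MCM10 and TICRR held none of the 4 words within 300 bases and rose. The promoter of MCM10 is printed whole, with its 2 forward CCAAT words in capitals. Only exact matches were counted, and this promoter holds tttggcgg, which differs from the searched TTTGGCGC in its last letter.
MCM10 (chr10:13161308-13161607, plus strand): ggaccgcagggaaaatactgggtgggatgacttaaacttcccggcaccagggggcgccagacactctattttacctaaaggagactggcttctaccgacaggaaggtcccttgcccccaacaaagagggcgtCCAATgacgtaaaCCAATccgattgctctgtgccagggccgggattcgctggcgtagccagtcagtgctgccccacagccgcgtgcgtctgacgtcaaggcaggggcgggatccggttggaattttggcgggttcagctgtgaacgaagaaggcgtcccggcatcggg
The overlap of a word with a rise is a description of letters. It names no factor acting in these cells.

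After decitabine, transcripts of the replication genes were higher at every step from licensing to histone supply. With limma and a Benjamini-Hochberg adjusted p under 0.05 over all 14884 genes, 16 of the 35 rose (45.7%), against 2.01% of all genes, and none fell, against 1.02%. At an unadjusted p under 0.05, 27 of the 35 were higher, against 8.13% of all genes, and 0 lower, against 5.79%. On the log2 scale the median of the changes (decitabine minus untreated) was 1.00, beside -0.02 for all genes, and 17 of the 35 were at least 2-fold higher, against 3.32%. The 3 decitabine values lay above the 3 untreated values for 30 of the 35 genes, against 11.3% of all genes, and below them for none, against 8.74%. In RNA from whole cultures, more cells in a given phase and more RNA per cell cannot be told apart.

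The groups share replicate numbers, which were taken as pairs of arrays although no pairing is stated. A fit with the number as a block raised the count to 26 of 35 (74.3%, against 7.79% of all genes) with none lower (against 5.37%). All 16 genes of the unblocked fit were among the 26. In the pairs of replicates 1, 2 and 3 the median changes were 0.86, 1.07 and 1.21. Of the 35 genes 33 were higher in all 3 pairs, against 22.9% of all genes, and the exceptions were RECQL4 and MCM9.

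**Figure D1:**
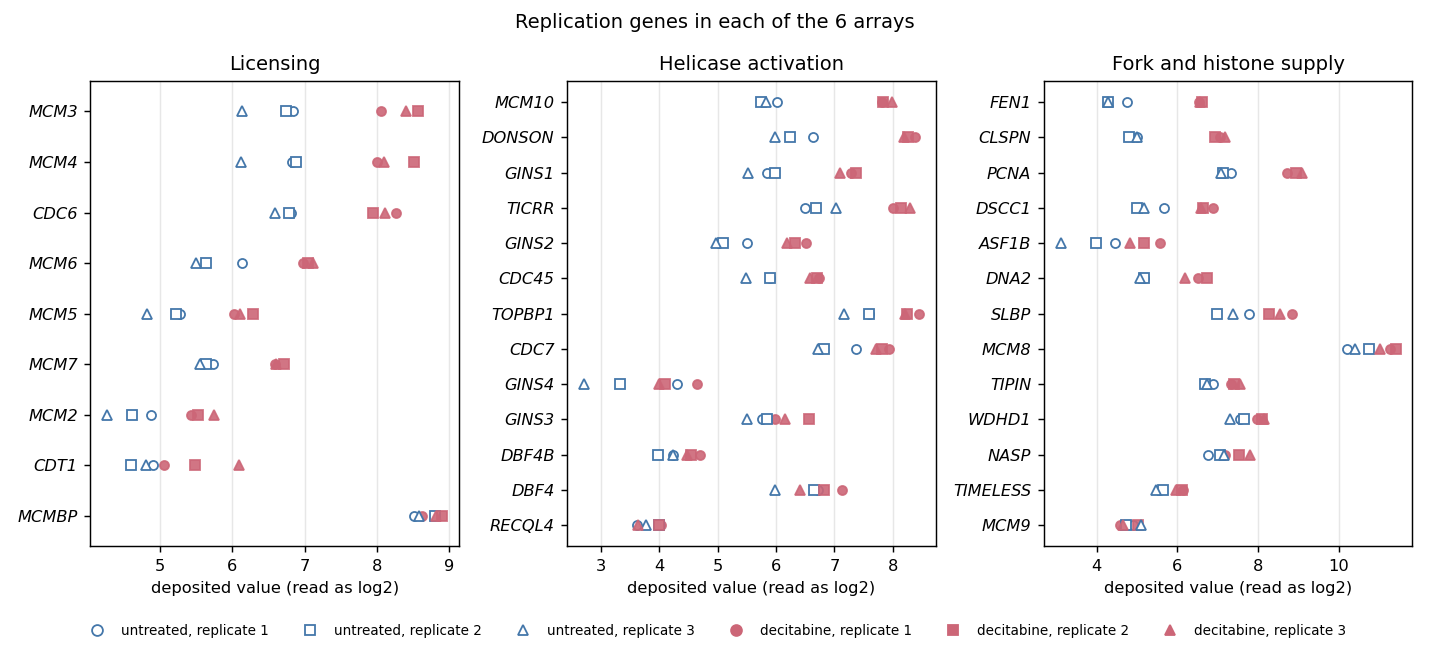
Deposited value (read as log2) of each measured replication gene in each array, by step. Open blue symbols are the 3 untreated arrays and filled red symbols the 3 decitabine arrays, with a symbol shape per replicate number, and within a step genes are ordered by change. The decitabine values lie above the untreated values for 30 of the 35 genes (against 11.3% of all genes). The groups overlap for MCMBP, DBF4, GINS4, RECQL4 and MCM9.

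Both arrays of replicate 1 had higher medians over all 48226 features (3.03 and 2.98, against 2.29 to 2.42 in the others) and a smaller spread (SD 1.90 and 1.97, against 2.09 to 2.15). The pair of replicate 1 gave the smallest of the 3 changes for 22 of the 35 genes (62.9%), against 33.1% of all genes, and untreated replicate 3 was the lowest untreated array for 21 (60.0%, against 43.1%). Without both arrays of replicate 1, 12 of the 35 rose (against 1.65% of all genes) and the median change was 1.18. Counts of calls varied with each array left out, from 5 without decitabine replicate 2 to 17 without untreated replicate 1, with 6 without untreated replicate 2, 7 without untreated replicate 3 or decitabine replicate 3, and 10 without decitabine replicate 1. Over all genes the number that rose moved from 299 to between 95 and 321.

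Licensing genes showed rises in the loader and in the ring. Of the 9 measured, 6 rose (against 2.01% of all genes) and none fell (against 1.02%). At an unadjusted p under 0.05, 8 were higher (against 8.13%), and the median change was 1.03. CDC6, the ATPase that with ORC opens the MCM ring for loading, read 6.81, 6.78 and 6.59 in untreated replicates 1 to 3 and 8.26, 7.94 and 8.11 after decitabine. The groups were well apart, and the change was 1.38 (SE 0.20, adjusted p = 0.0113), or 2.60-fold. CDT1, the other loading factor, read 4.90, 4.60 and 4.81 against 5.06, 5.49 and 6.09. Its decitabine values spread widely (SD 0.52), and the change of 0.78 (SE 0.29) had an adjusted p of 0.253, or 0.0771 with the block.

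The 6 subunits of the MCM ring were all higher in every decitabine array than in any untreated array (against 11.3% of all genes). MCM3 had the largest change, from 6.84, 6.74 and 6.14 to 8.06, 8.57 and 8.40, a difference of 1.77 (SE 0.26, adjusted p = 0.0123). MCM4 went from 6.83, 6.88 and 6.12 to 8.0, 8.51 and 8.09, a difference of 1.59 (SE 0.27, adjusted p = 0.0227). For both genes untreated replicate 3 lay well below the other untreated arrays. MCM6 read 6.14, 5.64 and 5.50 without the drug and 6.97, 7.05 and 7.11 with it, a rise of 1.28 (SE 0.23, adjusted p = 0.0260). MCM5 rose by 1.03 (SE 0.22, adjusted p = 0.0473), with 5.27, 5.22 and 4.82 against 6.02, 6.29 and 6.10. MCM7 was the tightest of the ring genes within groups (SD 0.09 and 0.06), at 5.73, 5.64 and 5.55 against 6.59, 6.71 and 6.61, and rose by 1.00 (SE 0.19, adjusted p = 0.0316). MCM2 read 4.87, 4.61 and 4.27 against 5.43, 5.52 and 5.74, a change of 0.98 (SE 0.23) that missed the threshold (adjusted p = 0.0670) and passed it with the block (0.0275).

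As a ring, MCM2 to MCM7 had a median change of 1.16, with 0.85, 1.24 and 1.54 in the pairs of replicates 1, 2 and 3. Untreated replicate 3 was the lowest untreated array for all 6 (against 43.1% of all genes, and for all 4 GINS genes too), and replicate 1 gave the smallest change for all 6 (against 33.1%). MCMBP, which binds MCM proteins and helps to unload them and keep them stable, had the smallest change of the step. It read 8.51, 8.80 and 8.58 against 8.62, 8.90 and 8.82, groups that overlap, with a change of 0.15 (SE 0.20, adjusted p = 0.955).

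Calls among the licensing genes depended on which arrays were kept. MCM5 missed the threshold without any of the 6 arrays (adjusted p of 0.0534 to 0.199). MCM6 and MCM7 missed it when any array but untreated replicate 1 was left out (up to 0.137 and 0.156). CDC6 and MCM4 did so without replicate 2 or 3 of either group (up to 0.0635 and 0.111), and MCM3 when replicate 2 of either group or decitabine replicate 3 was dropped (up to 0.0702). No licensing gene was called once replicate 2 of either group, or replicate 3 of the decitabine group, was left out.

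The microRNA genes MIR25 and MIR106B, each with a named feature, lie inside MCM7 on its strand. MIR25 read 3.45, 2.37 and 3.36 against 3.77, 2.78 and 3.84, a change of 0.40 (SE 0.39, adjusted p = 0.871, 0.0857 with the block). MIR106B read 4.24, 3.92 and 4.02 against 3.97, 3.99 and 4.10, a change of -0.04 (SE 0.20, adjusted p = 1.00). The groups overlapped for both, while those of MCM7 did not. Features for such short genes may detect hairpin precursors or host transcript that still holds them, which was not checked. No difference between these genes and MCM7 was tested.

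**Figure D2:**
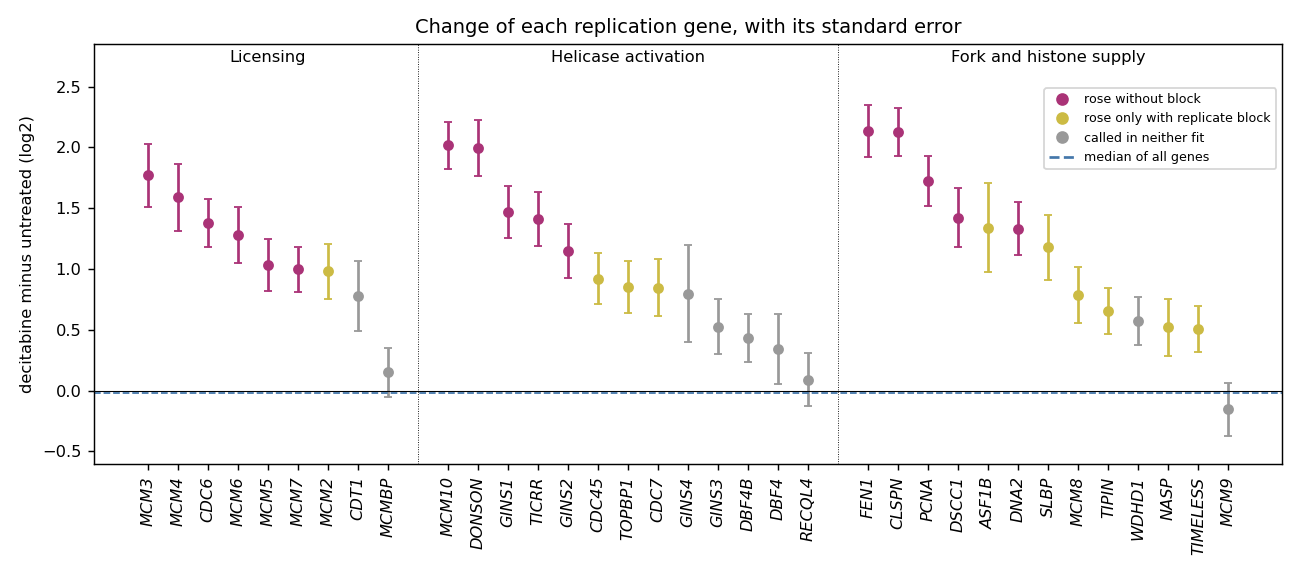
Change of each measured replication gene (decitabine minus untreated, log2) with the standard error from limma as bars, by step and ordered by size. Colours give the 16 genes that rose without a block, the 10 that rose only with the replicate block and the 9 called in neither fit, and the dashed line marks the median of all genes, -0.02.

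Among the 13 genes that activate the helicase, 5 rose (against 2.01% of all genes) and none fell. At an unadjusted p under 0.05, 8 were higher (against 8.13%), and 8 rose with the block (against 7.79%). The median change was 0.85. MCM10, which acts as the ring starts to unwind DNA, had the largest change of the step, from 6.02, 5.75 and 5.83 to 7.82, 7.84 and 7.99. The groups were far apart beside their spread (SD 0.14 and 0.09), and the difference was 2.02 (SE 0.19, adjusted p = 0.00234), or 4.05-fold. DONSON, a scaffold that helps deliver GINS to the loaded ring, went from 6.64, 6.24 and 5.99 to 8.39, 8.26 and 8.20, a difference of 1.99 (SE 0.23, adjusted p = 0.00461). TICRR, also called treslin, which carries the signal of cyclin-dependent kinases to the ring, read 6.49, 6.69 and 7.03 against 8.0, 8.15 and 8.29 and rose by 1.41 (SE 0.22, adjusted p = 0.0158). MCM10 and DONSON ranked 95 and 100 among the 14884 genes ordered by change from the top.

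The 4 GINS subunits form a single complex, and 2 of their transcripts rose (against 2.01% of all genes). GINS1 (PSF1) read 5.85, 5.99 and 5.52 against 7.28, 7.38 and 7.10, a rise of 1.47 (SE 0.21, adjusted p = 0.0119). GINS2 (PSF2) read 5.51, 5.10 and 4.98 against 6.51, 6.33 and 6.19, a rise of 1.15 (SE 0.22, adjusted p = 0.0361). The groups were apart for both of these subunits. GINS3 changed by 0.53 (SE 0.23, adjusted p = 0.361), with untreated values of 5.51 to 5.85 and decitabine values of 5.99 to 6.56. GINS4 was the most variable, at 4.30, 3.33 and 2.71 against 4.64, 4.10 and 3.99, and its groups overlapped (change 0.80, SE 0.40, adjusted p = 0.462). With the block GINS3 and GINS4 still missed the threshold (0.0705 and 0.0507), and the difference between subunits was not tested. A dimmer feature of GINS4 changed by 0.16.

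CDC45, the helicase cofactor that joins with GINS, read 5.90, 5.89 and 5.48 against 6.73, 6.71 and 6.59. The groups were apart, and the change of 0.92 (SE 0.21) had an adjusted p of 0.0616, or 0.0104 with the block. TOPBP1, the scaffold that links TICRR to GINS and also activates the kinase ATR, read 7.59, 7.60 and 7.16 against 8.45, 8.24 and 8.21, a change of 0.85 (SE 0.22) with an adjusted p of 0.0868, or 0.0150 with the block. CDC7, the kinase that phosphorylates the ring, read 7.38, 6.83 and 6.72 against 7.94, 7.82 and 7.71, a change of 0.85 (SE 0.24) with an adjusted p of 0.119, or 0.0177 with the block. All 3 were higher in each pair. Their errors with the block were 0.13 to 0.14, and the block error was the smaller for all 35 genes.

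The regulatory partners of CDC7 changed less than the kinase in value, a difference that was not tested. DBF4 had groups that overlapped (5.98 to 6.72 against 6.42 to 7.13, change 0.34, SE 0.29, adjusted p = 0.807), and DBF4B had groups that were apart (3.97 to 4.23 against 4.48 to 4.70, change 0.43, SE 0.20, adjusted p = 0.393). Neither passed with the block (0.143 and 0.0870). RECQL4, a helicase of the RecQ family needed for origin firing, had the smallest change of the step at 0.09 (SE 0.22, adjusted p = 0.996). It read 3.62, 4.00 and 3.78 against 4.03, 4.00 and 3.64, higher in 1 of the 3 pairs.

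Leaving out an array ended the calls of GINS1 (untreated replicate 3 or decitabine replicate 2, adjusted p up to 0.0741), TICRR (replicate 2 of either group or decitabine replicate 3, up to 0.0928) and GINS2 (every array but untreated replicate 1, up to 0.174). MCM10 and DONSON passed in all 6 leave-outs (adjusted p up to 0.0203 and 0.0340).

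Fork genes held the largest changes of the whole set. Of the 13 measured, 5 rose without a block (against 2.01% of all genes) and 11 with it (against 7.79%), and none fell. At an unadjusted p under 0.05, 11 were higher (against 8.13%), and the median change was 1.18. FEN1, the flap endonuclease that removes the ends of Okazaki fragments, read 4.74, 4.27 and 4.28 against 6.53, 6.61 and 6.55. The difference was 2.13 (SE 0.21, adjusted p = 0.00273), or 4.39-fold. DNA2, the helicase and nuclease that cuts longer flaps, read 5.18, 5.18 and 5.07 against 6.51, 6.74 and 6.18 and rose by 1.33 (SE 0.22, adjusted p = 0.0181).

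PCNA, the sliding clamp, read 7.34, 7.14 and 7.08 against 8.71, 8.94 and 9.08, a rise of 1.72 (SE 0.20, adjusted p = 0.00540), or 3.30-fold. DSCC1, a subunit of the alternative clamp loader that supports sister chromatid cohesion, read 5.68, 5.00 and 5.17 against 6.89, 6.64 and 6.59 and rose by 1.42 (SE 0.24, adjusted p = 0.0214). All 4 measured genes of the clamp and flap enzymes rose (against 2.01% of all genes), and their groups were apart upward (against 11.3%).

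CLSPN, or claspin, the fork protein that hands the ATR signal to the kinase CHK1, was higher by a like amount in each pair. It read 5.00, 4.79 and 4.99 against 7.05, 6.92 and 7.19, with 2.05, 2.13 and 2.20 in the 3 pairs, a difference of 2.13 (SE 0.20, adjusted p = 0.00205) that ranked 84 among all genes. A dimmer CLSPN feature changed by 1.34, in the same direction. TIPIN and TIMELESS, which form a heterodimer that rides with claspin, changed less in value. TIPIN read 6.89, 6.69 and 6.73 against 7.34, 7.40 and 7.54 (change 0.66, SE 0.19, adjusted p = 0.133, 0.0295 with the block), and TIMELESS 5.57, 5.65 and 5.47 against 6.14, 6.12 and 5.96 (change 0.51, SE 0.19, adjusted p = 0.258, 0.0439 with the block). The 2 partners moved by similar amounts with groups that did not overlap, and the gap between them and claspin was not tested.

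WDHD1 (AND-1), which tethers polymerase alpha to the helicase, changed by 0.57 (SE 0.20, adjusted p = 0.222, 0.0515 with the block), with untreated values of 7.31 to 7.65 and decitabine values of 7.98 to 8.15. MCM8 and MCM9 are MCM relatives that form a helicase of their own in homologous recombination. MCM8 read 10.21, 10.74 and 10.39 against 11.27, 11.41 and 11.02, a change of 0.79 (SE 0.23, adjusted p = 0.130, 0.0212 with the block). MCM9 read 4.89, 4.73 and 5.09 against 4.58, 5.03 and 4.64, a change of -0.15 (SE 0.22, adjusted p = 0.964), the lowest of the 35 and the single value below 0. Its groups overlapped, and whether the partners differ was not tested.

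The 3 genes of histone supply rose only with the block, where 7.79% of all genes rose. The groups were apart upward for each, against 11.3% of all genes. ASF1B, the S-phase form of a chaperone that delivers new H3 and H4, read 4.46, 3.99 and 3.11 against 5.57, 5.18 and 4.83. Replicate 1 was highest and replicate 3 lowest in both groups, and the change of 1.34 (SE 0.37) had an adjusted p of 0.110, or 0.00653 with the block. SLBP, which binds the stem-loop of histone mRNAs, read 7.77, 6.99 and 7.37 against 8.85, 8.27 and 8.54, a change of 1.18 (SE 0.27, adjusted p = 0.0629, 0.00431 with the block). NASP, a chaperone that holds a reserve of histones, read 6.75, 7.05 and 7.15 against 7.19, 7.52 and 7.80, a change of 0.52 (SE 0.24, adjusted p = 0.391, 0.0462 with the block).

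Of the fork genes that rose, FEN1, PCNA and CLSPN passed in all 6 leave-outs (adjusted p up to 0.0401). DNA2 lost its call when replicate 2 of either group, untreated replicate 3 or decitabine replicate 1 was left out (up to 0.0977), and DSCC1 without any array but untreated replicate 1 (up to 0.114).

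**Figure D3:**
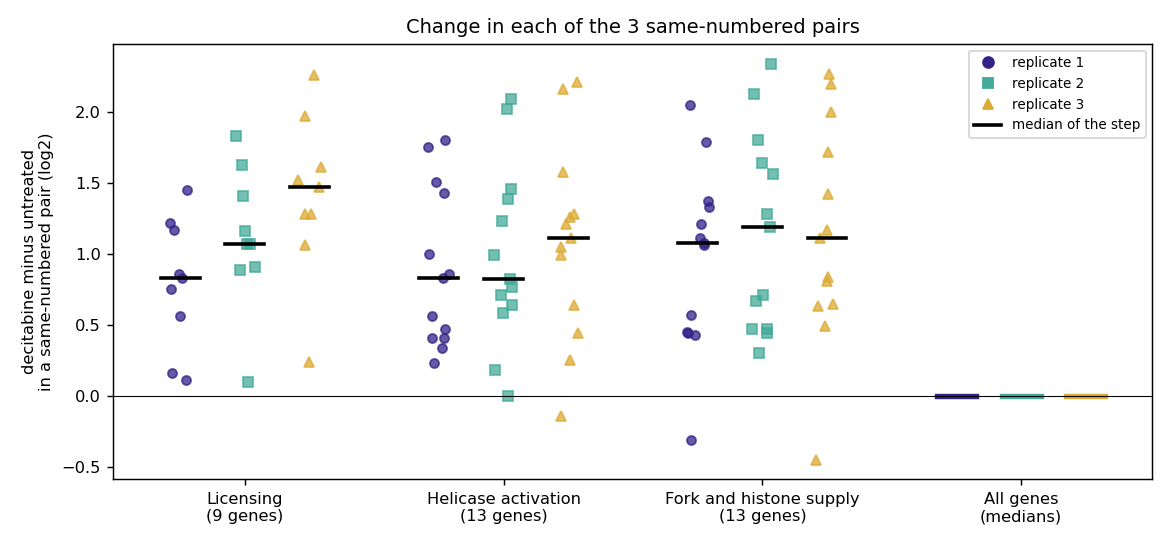
Change of each gene (decitabine minus untreated, log2) in each of the 3 same-numbered pairs, by step, with black bars at the median of the step and coloured bars for the median of all 14884 genes. Licensing medians were 0.83, 1.07 and 1.47 in pairs 1, 2 and 3, activation medians 0.83, 0.82 and 1.11, and fork medians 1.08, 1.19 and 1.11.

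By step, the medians differed by less than the members within a step. Licensing ranged from 0.15 to 1.77, helicase activation from 0.09 to 2.02 and the fork from -0.15 to 2.13. In the pair of replicate 3 licensing genes had the highest median (1.47), in that of replicate 2 fork genes (1.19), and no order of the steps held in all 3 pairs.

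Other genes of the same process moved less in value. Of 52 further replication genes listed for comparison, 19 had a named feature, and no DNA polymerase, primase, replication factor C or replication protein A gene was among them, so these were not analysed here. Among the 19, CDK2 rose (5.26%, against 2.01% of all genes) and none fell, and 6 rose with the block (31.6%, against 7.79%). At an unadjusted p under 0.05, 7 were higher and 0 lower, against 8.13% and 5.79% of all genes. The median change was 0.41. CDK2, the kinase that drives origin firing, read 5.83, 6.08 and 5.71 against 6.94, 7.26 and 7.04, a rise of 1.21 (SE 0.21, adjusted p = 0.0227). It missed the threshold without any array but untreated replicate 1 (up to 0.124). The 5 that rose only with the block, named after their values were seen, were TOP2A (0.65), DTL (0.78), FBXO5 (0.60), RBBP4 (0.84) and SUPT16H (0.51), with block-adjusted p of 0.0108 to 0.0429. DTL is the adaptor that marks CDT1 for destruction in S phase, and RBBP4 is a histone-binding subunit of chromatin assembly factor 1. ASF1A, the relative of ASF1B that is less tied to the cell cycle, changed by -0.36 (SE 0.20, adjusted p = 0.528), against 1.34 for ASF1B.

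Genes of G2 and mitosis gave a smaller median too. Of 25 measured, KIF20A and CDK1 rose (2 of 25, against 2.01% of all genes) and none fell, and 11 rose with the block (against 7.79%). At an unadjusted p under 0.05, 11 were higher and 0 lower, against 8.13% and 5.79% of all genes. The groups were apart upward for 19 of the 25 (76.0%), beside 85.7% of the replication genes and 11.3% of all genes. In all 3 pairs 22 of the 25 were higher (88.0%), beside 94.3% and 22.9%. The median was 0.46, beside 1.00 for the replication genes. In the pair of replicate 1 the medians were 0.57 and 0.86, in that of replicate 2 they were 0.36 and 1.07, and in that of replicate 3 they were 0.44 and 1.21. TOP2A is in this list and among the 19 other replication genes. The difference between the lists was not tested.

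**Figure D4:**
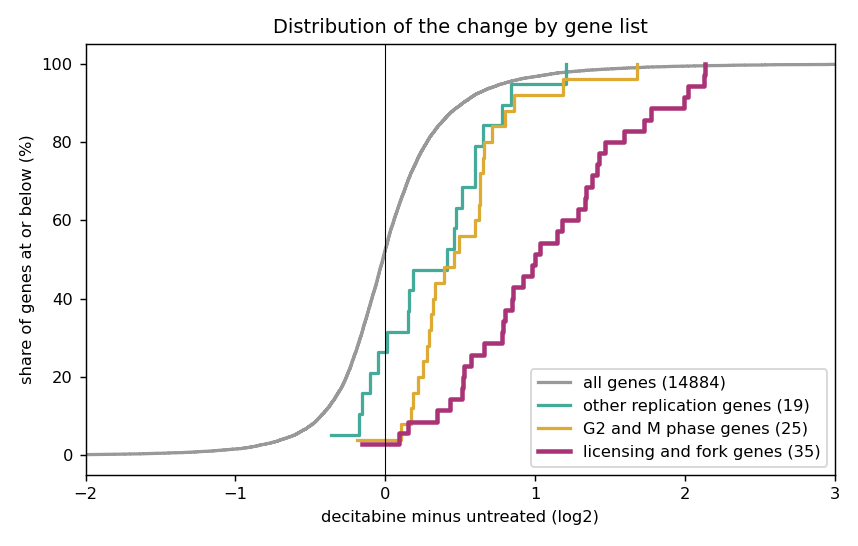
Cumulative share of genes (%) at or below each change (decitabine minus untreated, log2) for all 14884 genes, the 19 other replication genes, the 25 G2 and M phase genes (TOP2A is in both of these lists) and the 35 licensing and fork genes. The curve of the licensing and fork genes crosses the middle at 1.00, against -0.02 for all genes, 0.41 for the other replication genes and 0.46 for the G2 and M phase genes; the axis is drawn from -2 to 3 and a few genes lie beyond it.

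The measured genes found to start beside a replication gene on the opposite strand did not pass the test. By RefSeq starts, 12 of the 28 genes with a promoter entry had such a neighbour within 1000 bases, and 6 neighbours were measured. The 7 genes without an entry (MCM4, MCM5, GINS4, RECQL4, DONSON, DNA2 and DSCC1) could not be searched. The changes of the 6 measured neighbours were 0.07 to 0.49. None of these neighbours was called with or without the block (0 also at an unadjusted p under 0.05). Even so, MCM8, TIPIN and WDHD1 had neighbours (TRMT6, MAP2K1 and SOCS4) whose groups were apart in the same direction. TMEM258, which starts beside FEN1, read 6.23, 5.98 and 6.10 against 6.18, 6.08 and 6.25, a change of 0.07 (SE 0.19) next to 2.13 for FEN1. CDS2 beside PCNA changed by 0.29 (SE 0.23) next to 1.72.

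The markers of the line were checked in the same arrays. The 5 measured mesenchymal markers of 7 (VIM, CD44, FN1, ZEB1 and AXL) averaged 8.05 to 8.29 in untreated and 7.57 to 7.81 in decitabine arrays, with AXL lower after the drug and ZEB1 lower with the block only (-0.51, block-adjusted p = 0.0438). The hormone receptor genes ESR1 and PGR lay below the median of all features in every array. The 8 luminal markers of 10 averaged 3.52 to 4.04 untreated and 3.68 to 4.28 treated, and EPCAM and KRT19 passed upward with the block. Levels differed within that list. ESR1 and PGR were the dimmest on average, and KRT18 (7.57 to 7.97 over all arrays) and GATA3 (5.32 to 5.79) the brightest. Of other cell types, 2 of 6 leucocyte markers (CD14 and CD68, means 4.47 to 4.72 and 5.18 to 5.26), 3 of 5 endothelial (2.40 to 3.09 and 2.62 to 2.87) and 2 of 5 stromal (1.62 to 2.30 and 1.66 to 1.92) were measured. CD14 read 2.32 to 2.60 untreated and 3.08 to 3.34 after decitabine (block-adjusted p = 0.0247). The part of these markers in the results above was not tested.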

How the data were processed

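The authors' deposited values came from the Transcriptome Analysis Console, according to the submitters' processing notes, and were read as log2 because they run from 0.17 to 12.89 with 2 decimals. Their log base, normalization and filters, the tool's version and the build are not given in the sources consulted, so every change and fold rests on that reading. Of 48226 features, 16098 carried a single gene symbol and 32128 none here. Current symbols came from RefSeq by Entrez Gene ID (GRCh38.p14), where all 16098 matched, giving 14884 genes. Where a gene had several features, the brightest on average was used. No further normalization or filter was applied, and no measure of background was used. The number of arrays limits the precision.

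Groups and replicate numbers came from the sample titles. Decitabine and untreated arrays (3 each) were compared with limma 3.58.1 in R 4.3.3 (lmFit and eBayes, no covariate, two-sided), with Benjamini-Hochberg adjustment over 14884 genes and a threshold of 0.05; "rose" and "fell" mean past it. The fit was run on simulated data with planted changes. Only their mean estimate had to be met, so this check does not bear on the calls made here. Whether replicates are separate cultures is not stated, so the p-values cover only the spread among these samples, and that spread may be technical. Same-numbered arrays deviated together from their group means (correlations 0.682, 0.595 and 0.558), so the numbers were taken as pairs. The others correlated at -0.483 to -0.006. Deviations within a group cancel out, which pushes these others down, so they are no separate support for the pairing. Whether array-wide differences, such as those of replicate 1, enter these correlations was not tested. Block values stand where they change a call. The genes and lists were chosen with earlier results of these data known. Per-array values are given for genes that rose in either fit and for the least changed gene of each step, and other genes by range. A few others are given per array because a result turns on them, chosen after their values were seen. Promoter words were searched on both strands. Alternatives were the block, leaving out arrays, quantile normalization, median centring, a filter on the dimmer 50% of genes, the mean of a gene's features and an intensity trend.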

Additional observations from a re-analysis of the deposited data

How the results depend on the processing

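No replication gene fell under any alternative run, and all 35 passed the filter on the dimmer 50% of genes. The number that rose was 16, and it became 26 with the replicate block and 25 with an intensity trend in eBayes. It was 24 with the dimmer 50% left out, 22 with quantile normalization, and 5 to 17 with an array left out. The share of all genes that rose moved too, from 2.01% to 7.79% with the block, 4.66% with the trend and 3.70% with quantile normalization. It was 7.48% with the dimmer 50% left out, 1.65% without both arrays of replicate 1, and 0.638% to 2.16% with an array left out. For licensing (6) the number that rose was 3 without both arrays of replicate 1 and 0 to 5 with an array left out. For helicase activation (5) it was 8 with the replicate block, the dimmer 50% left out or the trend, and 2 to 6 with an array left out. For the fork (5) it was 11 with the replicate block, 8 with quantile normalization, 9 with the dimmer 50% left out, 10 with the trend and 3 to 6 with an array left out. Median changes kept their sign. That of all genes in the set was 1.18 without both arrays of replicate 1 (0.89 to 1.12 with an array left out), and with an array left out those of licensing, activation and the fork ran from 0.95 to 1.12, 0.72 to 1.05 and 0.97 to 1.35. The change of RECQL4 turned to -0.07 without both arrays of replicate 1 (0.00 to 0.215 with an array left out). Median centring ended 3 calls and added 2, and using the mean of a gene's features changed none. Fewer samples or fewer genes tested are part of these settings; the cause of the other shifts was not tested. Signal over background was not used, so dim values such as those of GINS4 and RECQL4 carry an unknown floor.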
